A study of Homo sapiens with 12 samples.

Results

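Regions at gene 3' ends are stretches of RNA near the last base of a protein-coding gene that an antibody to N4-acetylcytidine (ac4C) enriched and that were listed as peaks. Peaks of 6 acetylated RNA immunoprecipitation sequencing (acRIP-seq) libraries that overlapped by at least 1 base on the same strand were merged into 41755 regions. A region was kept when its midpoint lay inside a protein-coding gene on the same strand, within 1000 bases of the annotated 3' end of that gene and not within 500 bases of its 5' end. This left 2328 regions, which hold 7045 of the 126599 listed peaks and lie at the 3' ends of 2280 genes. The rule uses position only, so neither the score of a peak nor the libraries it was found in was a criterion. The midpoint of a merged region depends on its width and on the peaks merged into it. Width and libraries thus bear on the choice indirectly.

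The libraries came from SW620, an established human colorectal cancer cell line kept in L15 medium with serum and antibiotics. The labels name 3 shControl libraries, given the genotype WT, and 3 shNAT10 libraries, given the genotype NAT10 knockdown. Both are stable lines made in the study with lentiviral short hairpin RNA (shRNA) and puromycin selection, so the control cells carry a vector and have been selected as well. The study lists 2 shRNAs against NAT10 and the labels do not say which one was used here, nor whether the 3 libraries came from the same line. Nothing says that the replicates came from separate cultures, so the p-values measure only the spread between these samples, which may be technical. Each peak has a position, a strand and a score. Without counts, sequencing depth is unknown and the amount of NAT10 cannot be read from the lists. Knockdown replicate 1 and control replicate 2 had the longest lists, with 28752 and 22619 peaks, against 17877 to 20063 in the other 4 libraries. Of the 4 epithelial markers with a known strand, KRT8, a keratin, and CDX2, an intestinal transcription factor, had peaks in all 6 libraries, LGALS4, a galectin, had peaks in 1 control and 1 knockdown library, and KRT20, another keratin, had none. PTPRC of blood cells had no peak, and VIM, a mesenchymal filament gene that culture lines often express, had 1 region in all 6.

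NAT10 is the acetyltransferase that places ac4C on RNA, and ac4C in messenger RNA has been tied to its stability and translation. The 3' end of a gene is where the transcript is cut and a poly(A) tail is added, a step guided by a short signal, most often AATAAA or ATTAAA in the DNA letters, a little upstream of the cut. The last stretch of an mRNA usually holds the 3' untranslated region, where microRNAs and proteins that control decay bind. In many genes the last exon is also the longest one, and genes without introns consist of a single exon.

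The sequences below show what the annotated ends look like where they could be read. Each is the last 30 bases of a gene with a 3' end region in 5 or 6 libraries, 5' to 3' on the strand of the gene, from RefSeq windows of GRCh38.p14. There were 12 such ends, and the 7 shown first hold a poly(A) signal, which is in capitals.
ZNF580: ccctttgctcAATAAAcattccgcactcca
CCDC86: agagaaaacatAATAAAcaagcaaaatgca
NABP2: ctctccttcctAATAAAtgttaccactcta
GPATCH3: cacggaagAATAAAgacgtttactactgga
ATP6V0C: agctgtgtccAATAAAgttcttggatgtga
TAF6L: ttccttgtaAATAAAtcccgcccccggaaa
DHRS13: ccctcggAATAAAgcgcgttgaccgccgaa
The other 5 hold neither hexamer, although ATRAID, AMDHD2, PPP1R27 and LOC124900839 had a 3' end region in all 6 libraries and MIP had one in 5. The LOC124900839 region ran 256 bases past the annotated end. In control replicate 2 its peak lay wholly past that end, so its assignment to this gene is uncertain.
ATRAID: ttttttttcctctctttctttttaaggaaa
AMDHD2: taaaatacataacaaaagtaactatcgtaa
PPP1R27: aggtgagggggcctgggtctacacacgtgg
LOC124900839: catgttggggtcctagcgagggacgcgtag
MIP: gacctcacataaaacagtccctgcactcgc

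ZNF580, a zinc finger gene, ends at chr19:55643441-55643470 on the plus strand, and its 1707-base region stopped 1 base short of that end in all 6 libraries. CCDC86, a nucleolar protein gene, ends at chr11:60851052-60851081 on the plus strand, and its region was 876 bases in all 6 libraries and stopped at the last base. NABP2, which encodes a single-stranded DNA binding protein of DNA repair, ends at chr12:56229825-56229854 on the plus strand, and only control replicate 2 had no peak there. GPATCH3 ends at chr1:26890488-26890517 on the minus strand and lacked a peak in the same library. ATP6V0C, a subunit of the vacuolar proton pump, ends at chr16:2520189-2520218 on the plus strand, and its 678-base peak was listed in all libraries but knockdown replicate 2. Where listed, that peak was always at the top score value of 3100 or above. TAF6L, a subunit of a histone acetyltransferase complex, ends at chr11:62787313-62787342 on the plus strand and also lacked a peak in knockdown replicate 2. DHRS13, of a dehydrogenase family, ends at chr17:28897781-28897810 on the minus strand and lacked a peak in knockdown replicate 1. In the 5 genes that missed a library, it was thus a control library in NABP2 and GPATCH3 and a knockdown library in the others.

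Only 95 annotated 3' ends fell inside the sequence windows at hand, which run around the starts of neighbouring genes, so they are a small and particular sample. AATAAA or ATTAAA lay in the last 40 bases of 15 of the 26 ends with a 3' end region (57.7%). It lay in 21 of the 35 ends of genes with peaks only elsewhere and in 13 of the 34 ends of genes without any same-strand peak (38.2%). The reverse complements were found in 10 of the 95 ends (10.5%). For comparison, 374 of the 35116 gene start windows held either hexamer in their first 40 bases (1.07%). An end with either hexamer, or with both, was counted once, and a match is not a used site. With 26 ends the share at 3' end regions cannot be told from the share at the ends of genes with peaks elsewhere.

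A few 3' end regions also span a microRNA precursor on the same strand. The mature sequences are shown, 5' to 3' and from RefSeq, with the seed, bases 2 to 8, in capitals, since none of them shares its seed with another.
hsa-miR-1244: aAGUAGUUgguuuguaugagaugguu
hsa-miR-4751: aGAGGACCcguagcugcuagaagg
hsa-miR-1182: gAGGGUCUugggagggaugugac
hsa-miR-671-5p: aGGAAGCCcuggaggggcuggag
hsa-miR-671-3p: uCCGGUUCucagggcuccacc
The first lies in PTMA, the gene of the small nuclear protein prothymosin alpha, at chr2:231713368-231713393 on the plus strand of GRCh38.p14. The PTMA region was at the top score value of 3100 or above in all 6 libraries, though PTMA has many processed copies in the genome and its reads may have been split among them. The second lies in ATF5, a stress-response transcription factor gene, at chr19:49933073-49933096 on the plus strand, and that region was also found in all 6 libraries. In both genes the peaks of all 6 libraries spanned the precursor. The third lies in FAM89A at chr1:231019841-231019863 on the minus strand, in a region with peaks in control replicate 2 and knockdown replicates 1 and 3, of which only that of knockdown replicate 3 reached the precursor. The last pair comes from 1 precursor in CHPF2, where only knockdown replicate 1 had a peak. These peaks were listed as mRNA peaks, and their scores say nothing of the mature microRNAs.

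The 3' end regions made up about the same small share of each list. The control libraries had 1021, 1143 and 1145 of them and the knockdown libraries had 1546, 996 and 1064. Their shares of all regions of a library were 5.64%, 5.12% and 5.75% for control, against 5.49%, 5.59% and 5.61% for knockdown cells. Thus knockdown replicate 1 was far above the other libraries in number and not in share, and the groups overlapped in both. The mean numbers, 1103 ± 71.0 in control and 1202 ± 300 in knockdown libraries (SD, n = 3 each), did not differ beyond the spread (two-sided exact permutation test, p = 0.9, adjusted p = 1 over 5 tests, where 3 against 3 cannot go below 0.1). The mean share was 5.50% ± 0.335 in control and 5.57% ± 0.0645 in knockdown libraries (SD, n = 3 each, exact permutation test, p = 1, adjusted p = 1). Without knockdown replicate 1 the difference in number, knockdown minus control, changed sign to -71.7, and without control replicate 2 the difference in share changed sign to -0.138 percentage points.

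**Figure D1:**
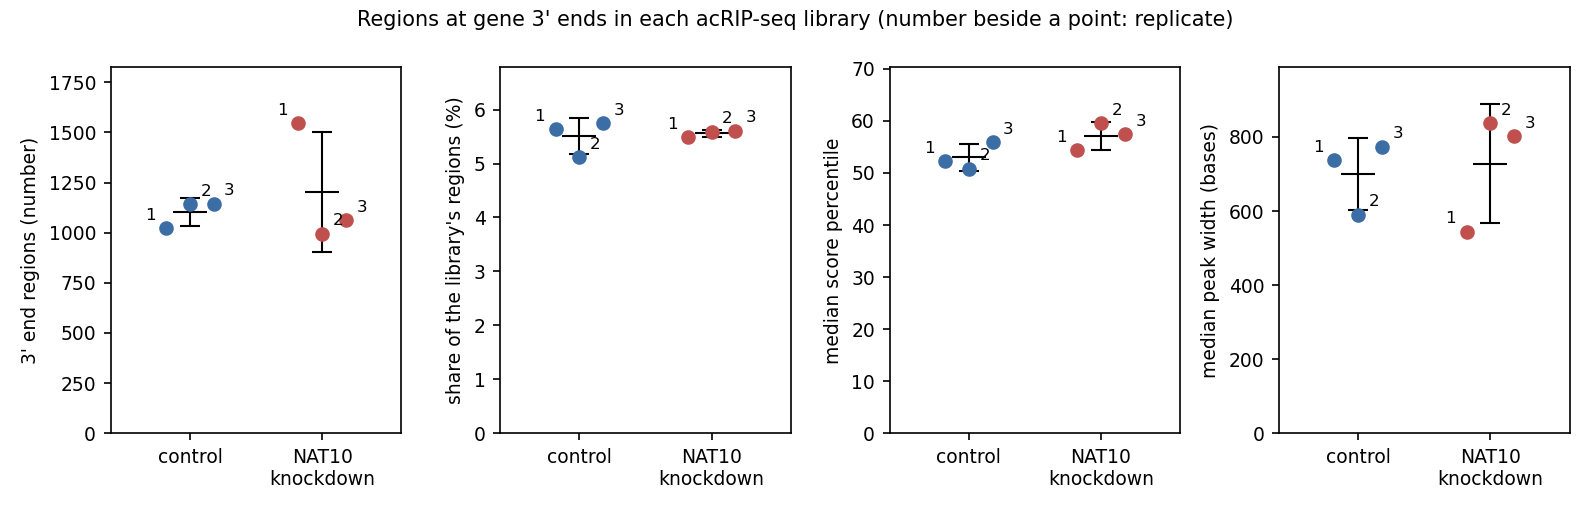
Number of 3' end regions, their share of all regions (%), median score percentile and median peak width (bases) in each library. Points are libraries with their replicate number, horizontal lines are group means and bars are SD (n = 3), and in all 4 panels the control and NAT10-knockdown libraries overlap.

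The score of a peak was used only as a rank, because it starts at 50 and piles up at 3100, so it is given as a percentile among all peaks of its library, where 100 is the top. The median percentile of the 3' end regions was 52.3, 50.9 and 56.0 in the control and 54.3, 59.6 and 57.4 in the knockdown libraries. The means were 53.0 ± 2.64 and 57.1 ± 2.63 (SD, n = 3 each), a difference of 4.08 points (exact permutation test, p = 0.2, adjusted p = 1). The lowest knockdown library lay below the highest control library, so the groups overlapped. The median peak width was 737, 590.5 and 774 bases in control and 544, 837 and 803 bases in knockdown libraries, with the narrowest peaks in the 2 longest lists. The means were 700.5 ± 97.0 and 728 ± 160 bases (SD, n = 3 each, exact permutation test, p = 0.7, adjusted p = 1). This difference changed sign, to -27.5 bases without control replicate 2, to -27.8 without knockdown replicate 2 and to -9.5 without knockdown replicate 3, and without knockdown replicate 1 it was 119 bases.

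Within the window the regions were not spread evenly. Their midpoints were most frequent between 200 and 300 bases from the annotated end, with 344 regions, against 157 regions between 900 and 1000 bases. Only 96 midpoints lay in the last 100 bases, where a region has little room on its downstream side. Just outside the limit, between 1000 and 1100 bases, 167 further regions were found. Those just inside and just outside were found in all 6 libraries at 21.7% and 20.4%. Their median widths were 1637 and 1028 bases, against 131.5 bases for midpoints in the last 100 bases. Inside the limit, regions were wider the farther their midpoint lay from the end, so width is not independent of the rule. The median distance of the midpoint from the end was 459, 483.5 and 482 bases in the control and 473, 469 and 477 bases in the knockdown libraries. The means, 475 ± 13.7 and 473 ± 4 bases (SD, n = 3 each), differed by less than the spread between libraries, and since the rule bounds the distance, these values are a description.

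The downstream edges of the regions piled up on the annotated ends. In 635 of the 2328 regions (27.3%) the last base of the region was exactly the last base of the gene, and in 1242 (53.4%) it lay within 10 bases. It ran past the annotated end in 484 regions (20.8%), by more than 10 bases in only 113 of them, and stopped more than 100 bases short in 694 (29.8%). The rule holds the midpoint inside the gene and does not fix where the edge lies. How the deposited lists set the edges of peaks is not given in the sources used here. The part of the annotation in this pile-up was not tested. Per library, the share of single peaks in 3' end regions that ended within 10 bases of the gene was 55.7%, 41.0% and 57.6% in control and 38.0%, 66.2% and 61.5% in knockdown cells. The lowest values were again those of knockdown replicate 1 and control replicate 2, the libraries with the most peaks, and the part of list length in this share was not tested. The longest regions ran far past their gene, as in SPATA24, a spermatogenesis-associated gene, where a 5122-base region reached 1908 bases beyond the annotated end. Its peaks covered 3034, 3636 and 5053 bases in control and 3931, 5122 and 4283 bases in knockdown libraries, and here reads of a neighbour cannot be told from a longer transcript. FAM131A was the next longest, with a region of 2812 bases that reached 1031 bases past its end, at percentiles of 6.09 to 40.7 over the 6 libraries. Its peaks did not lie at 1 place. The gene ends at 184346275 on chromosome 3. The peak of knockdown replicate 1, from 184346343 to 184347142, lay wholly past that end, and that of knockdown replicate 2 began at 184346207. The control peaks and that of knockdown replicate 3 stayed inside the gene, so these percentiles belong to different stretches.

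**Figure D2:**
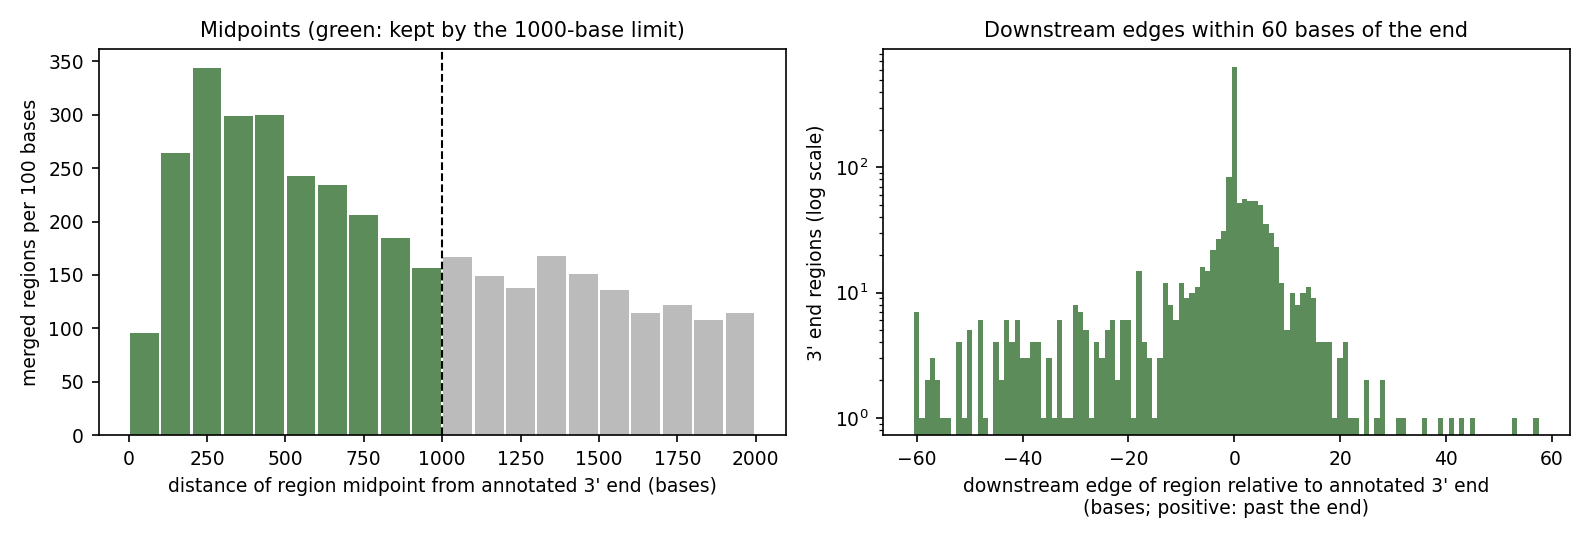
Left, number of merged regions per 100 bases of distance between the region midpoint and the annotated 3' end, with the kept regions in green left of the dashed limit at 1000 bases. Right, number of 3' end regions (log scale) by the position of the downstream edge relative to the annotated end in bases, where 635 regions stop exactly at the end and positive values lie past it.

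The upstream edge was the more stable one. Of the 442 regions found in all 6 libraries, 401 had 1 peak in each library, so that edges could be compared. Their upstream edge was the same base in all 6 libraries in 356 regions (88.8%) and their downstream edge in 174 (43.4%). The downstream edge ranged over a median of 13 bases between libraries and the upstream edge over a median of 0. Among 4214 gene-interior regions, those farther from either end of the gene, the downstream edge was the same in 83.6% and the upstream edge in 91.4%. No exon positions were used here, so how many of these edges are exon boundaries was not tested.

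The 3' end regions were broader and ranked higher than gene-interior regions in every library. Their median width averaged 714 bases over the 6 libraries against 167 bases in the interior, a difference of 547 ± 110 bases (SD, n = 6, higher in 6 of 6 libraries, two-sided exact permutation test by sign flips, p = 0.03125, which is the lowest 6 libraries allow, adjusted p = 0.0365 over 7 tests). Their median score percentile averaged 55.1 against 44.7, a difference of 10.4 ± 2.69 points (SD, n = 6, higher in 6 of 6 libraries, exact permutation test, p = 0.03125, adjusted p = 0.0365). Width and rank moved together here, and the part of width in the rank was not tested. The width difference depended on the limit of the rule, at 343 bases within 500 bases of the end and 628 bases within 2000 bases. The share of regions that were found in all 6 libraries averaged 39.2% at 3' ends and 40.2% in the interior (difference -0.987 ± 2.32 percentage points, higher in 2 of 6 libraries, n = 6, exact permutation test, p = 0.344, adjusted p = 0.344). This last difference turned to 0.920 without control replicate 2 and to 0.749 without control replicate 3. It also depended on the limit, at -5.66 points for regions within 500 bases of the end (exact permutation test, p = 0.03125) and 0.670 within 2000 bases (exact permutation test, p = 0.406). The regions found in all 6 are the same for every library, 442 at 3' ends and 4464 in the interior at the main limit. The SD and p-values of this share thus reflect list lengths and not a spread in recurrence.

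At 5' ends, by the mirrored rule, 5674 regions were found, with an average of 3772 per library against 1152.5 at 3' ends (difference -2620 ± 167, lower in 6 of 6 libraries, n = 6, exact permutation test, p = 0.03125, adjusted p = 0.0365). Regions that met both rules were counted at the 3' end only, so the 5' set is not a full mirror. The part of this priority in the number, width and score differences was not tested. The 3' end regions were found in all 6 libraries less often than those at 5' ends, 39.2% against 62.3% (difference -23.2 ± 2.04 percentage points, lower in 6 of 6, n = 6, exact permutation test, p = 0.03125, adjusted p = 0.0365). Here too the regions found in all 6 are the same for every library, 442 and 2337. The SD and p-value of this share thus reflect list lengths and not a spread in recurrence. The 3' end regions were also wider than the 5' end peaks, whose median width averaged 296.5 bases (difference 418 ± 105 bases, higher in 6 of 6, n = 6, exact permutation test, p = 0.03125, adjusted p = 0.0365). Their score percentile was lower, 55.1 against 64.4 (difference -9.29 ± 6.64 points, lower in 6 of 6, n = 6, exact permutation test, p = 0.03125, adjusted p = 0.0365). Among the higher-scored 50% of each list that last difference was -0.328 points (exact permutation test, p = 0.875), so the lower rank of 3' end regions did not hold there.

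Counted once each, 890 of the 2328 regions (38.2%) were found in 1 library and 442 (18.99%) in all 6. At 5' ends these shares were 20.6% and 41.2%, and in the interior 42.4% and 18.0%. Knockdown replicate 1 held 371 of the 890 single-library regions (41.7%) and control replicate 2 held 185 (20.8%), against 48 to 123 in each of the other libraries. The regions seen once were narrow, with a median of 275.5 bases, and 27.4% of them ended within 10 bases of the gene. With each further library the median width was larger, reaching 993 bases for those in all 6, of which 77.1% ended within 10 bases of the gene. Merging joins peaks of several libraries, so a region of more libraries can only be as wide as its widest peak or wider.

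Pairs of libraries shared 3' end regions to a similar extent within and between the groups. The Jaccard index, the regions found in both libraries over those found in either, averaged 0.496 over the 6 pairs within a group (0.443 to 0.649) and 0.486 over the 9 pairs between groups (0.431 to 0.545). These pairs share libraries and list lengths, so the values are given as a description.

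Many 3' end regions tied at the top score in all 6 libraries, and by the rule for named genes the 5 longest of them were named. These were the regions of CEBPB, DDX54, JUND, JUNB and NSRP1. Of these 5, 3 belonged to short genes that are covered almost from end to end. Ties went to the longer region, so the choice favours wide regions and the 5 do not stand for the tied set. All 5 had a score of 3100 or above in every library, which is a percentile of 96.0, 94.8 and 93.2 in the control and 92.7, 94.0 and 93.2 in the knockdown libraries, so they cannot be ordered among themselves. In all, 58 of the 442 regions found in all 6 libraries (13.1%) were at or above that ceiling in every library. Their genes had a median length of 9875 bases, 5 of the 58 regions covered at least 90% of the gene, and 27 covered under 10%. Over regions of every kind found in all 6 libraries it was 933 (10.1%). JUND and JUNB encode AP-1 transcription factors and CEBPB a transcription factor of inflammation and differentiation, and all 3 genes lack introns. The JUND region was 1863 bases in each of the 6 libraries and spans 96.6% of the gene. That of CEBPB was 1956 bases in each library and spans 92.8% of its gene, and that of JUNB was 1820, 1784 and 1796 bases in control and 1820, 1820 and 1756 bases in knockdown libraries, in all 99.5% of the gene. In these genes a region called a 3' end region also covers the coding sequence.

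DDX54, an RNA helicase gene, and NSRP1, a splicing regulator gene of nuclear speckles, were different, since their regions cover only 6.85% and 2.61% of long genes. The DDX54 peaks covered 1905, 881 and 1636 bases in control and 1041, 1939 and 1939 bases in knockdown libraries. Here the shortest cover was again in control replicate 2 and knockdown replicate 1. The NSRP1 peaks covered 1468, 1115 and 1546 bases in control and 1543, 1738 and 1817 bases in knockdown libraries, and the longest control value was just above the shortest knockdown value. Of all 3' end regions, 28 covered at least 90% of their gene, 16 of them in all 6 libraries, and 70 covered at least 50%.

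Genes with a 3' end region tended to be short. A 3' end region was found in 2280 of the 9842 genes with any same-strand region (23.2%), and 453 genes had one in all 6 libraries. The median length of the gene span was 15750.5 bases in genes with a 3' end region and 40551 bases in the other genes with a region. The share was lower in each longer class of genes, from 50.2% of the genes under 5000 bases to 10.1% of those of 100000 bases or more. A limit of 1000 bases takes in a larger part of a short gene, so the rule itself sets part of this trend. For 443 of the 2280 genes (19.4%) the 3' end region was the only region, and 62 genes had 2 such regions, none more. Since many genes tie at 2, no gene stands out by number.

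Among the 22 chromosomes with genes of known strand, chromosome 19 had the largest share of genes with a 3' end region. There, 387 of 836 genes with a region had one at the 3' end (46.3%), followed by chromosome 22 (36.6%) and chromosome 16 (33.0%), and chromosome 13 had the lowest share, with 12 of 179 genes (6.70%). Chromosome 19 was above the other chromosomes in every class of gene length, from 63.4% against 48.0% under 5000 bases to 36.4% against 9.79% at 100000 bases or more, although the last class held only 22 genes on chromosome 19. Its zinc finger genes with ZNF symbols had a lower share than its other genes, 26 of 142 (18.3%) against 361 of 694 (52.0%), and on the other chromosomes the ZNF genes were at 21 of 170 (12.4%). Over the whole genome the ZNF genes were at 47 of 312 (15.1%) and the kinesins at 4 of 28 (14.3%), below the 23.2% of all genes, while the TMEM genes were at 37 of 124 (29.8%) and the proteasome subunits at 8 of 26 (30.8%). These shares are descriptions, without a test, and base composition was not at hand for them.

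In the comparison of shControl with shNAT10 cells, a changed region was one with a peak in each of the 3 libraries of a group and in no library of its counterpart. At 3' ends, 13 regions (0.558%) were control only and 24 (1.03%) were knockdown only. Over all 41755 regions the same rule called 0.34% as control only and 0.819% as knockdown only, in all 1.16% against 37 of 2328 at 3' ends (1.59%). In the mirrored 5' end set 28 and 29 of 5674 regions were called, and in the interior 75 and 222 of 24739. The 3' end counts are small and lean to the knockdown as do those over all regions. They changed with the setting, to 6 control-only and 22 knockdown-only regions among the higher-scored 50% of each list and to 8 and 13 with equal numbers of peaks per list. Counted by gene, 14 of the 2280 genes (0.614%) met the rule for control by their 3' end peaks and 23 (1.01%) for knockdown. When peaks anywhere in the gene were counted, which is a different measure, 0.366% and 0.386% of the 9842 genes met it.

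Of the control-only regions PCSK1N was the strongest. PCSK1N encodes proSAAS, an inhibitor of a prohormone convertase in neuroendocrine cells, and its region lies at chrX:48831094-48831455 on the minus strand of GRCh38, with its edge 2 bases past the annotated end. The peak was 362 bases in each control library, at percentiles of 99.8, 94.8 and 93.2, and no knockdown library listed one. A peak at the ceiling of 3100 can be absent from a list, as that of ATP6V0C was from knockdown replicate 2 alone. Elsewhere in PCSK1N all 6 libraries had a peak, so the gene as a whole was listed in both groups. PER1, a repressor of the circadian clock, had 3' end peaks of 869, 866 and 869 bases at percentiles of 43.5, 59.6 and 80.3 in the control libraries alone, and 2 other PER1 regions were found in all 6 libraries. DBF4B, an activator of the CDC7 kinase of DNA replication, was listed at 48.4, 36.1 and 53.5 in control. CGREF1, a growth regulator with calcium-binding EF hands, was listed at 46.8, 44.5 and 25.2 and reached 464 bases past its annotated end, so its assignment to this gene is uncertain. NIT1, of the nitrilase family, was listed at 24.6, 31.4 and 34.1.

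The other control-only regions were those of DRC8, RTN2, SIT1, MRPS12, CBX7, HAUS8, LEMD1 and CKB, which were named after their values were seen. Among them are CKB, the brain-type creatine kinase, CBX7, a Polycomb subunit, and MRPS12, of the mitochondrial ribosome. The CKB percentiles were 60.4, 0.674 and 37.3, so in control replicate 2 the peak was among the weakest of the list. Over the 13 regions the lowest control percentile had a median of 16.5 and ranged from 0.674 to 93.2. Strong peaks in every control library were thus the exception. In 10 of the 13 genes at least 1 knockdown library listed peaks elsewhere in the gene. CKB, MRPS12 and SIT1 were the exceptions, with no other region.

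Among the knockdown-only regions MIB2, a ubiquitin ligase that acts on Notch ligands, was the strongest. Its peak was 319 bases in each knockdown library, at percentiles of 80.9, 94.0 and 85.0, and it ended 5 bases past the gene at chr1:1630292-1630610 on the plus strand. No library listed any other region of MIB2. WDR38, a WD repeat gene, was listed at percentiles of 65.4, 63.6 and 93.2 and had no other region either. CFD, complement factor D, a serine protease, had a 539-base peak at 56.0, 78.2 and 77.2, and all control libraries had peaks elsewhere in the gene. PEX6, an ATPase of peroxisome biogenesis, was listed at 71.9, 65.9 and 50.4. The gene had another 3' end region as well, and all 3 control libraries had peaks elsewhere in PEX6. ZNF581 had a 1070-base peak at 76.9, 47.3 and 57.5 in the knockdown libraries, 1 base short of its end. It is the neighbour of ZNF580, whose end is printed above and whose 3' end region was at the ceiling in all 6 libraries, and both lie on the same strand with overlapping spans.

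The remaining 19 knockdown-only regions, named after their values were seen, were those of MPV17, CHGA, TXNDC11, PRDM11, CACNB3, TBXT, TMEM125, SLC37A1, COL6A2, FAM32A, MLF2, DNASE1, AVPI1, ERFE, CGB5, IGFBP2, BCAP31, IVD and PRDM2. They include CHGA, the secretory granule protein chromogranin A, at percentiles of 26.0, 25.9 and 26.0, and TBXT, the transcription factor brachyury, at 27.0, 17.0 and 30.2. IGFBP2, a binding protein of insulin-like growth factors, was listed at 3.61, 8.67 and 35.7, and IVD, a leucine-degrading enzyme of mitochondria, at 3.61, 16.4 and 1.67. CGB5, which had another 3' end region as well, belongs to a cluster of near-identical chorionic gonadotropin genes. Reads can be split among these genes, so its peak cannot be placed with certainty. The lowest knockdown percentile over the 24 regions had a median of 14.4 and ranged from 1.63 to 80.9. In 19 of the 24 genes at least 1 control library had peaks elsewhere in the gene. ERFE, IGFBP2, MIB2, MLF2 and WDR38 were the exceptions.

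Of the 442 regions found in all 6 libraries, 31 (7.01%) had a higher percentile in every knockdown than in every control library and 14 (3.17%) a lower one. Over all 9195 regions found in all 6 libraries these shares were 6.98% and 3.23%, so the 3' ends were at the background. Peak width was larger in every knockdown library in 9 regions (2.04%) and smaller in 6 (1.36%), beside 0.914% and 0.587% over all. The median percentile of the 442 regions was 71.0, 75.8 and 80.9 in the control and 81.2, 77.4 and 78.0 in the knockdown libraries, with the lowest value in control replicate 1.

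The following regions were chosen after their values were seen and have no test. ZNF414, a zinc finger gene, was at percentiles of 43.6, 4.57 and 6.12 in control and at 68.6, 94.0 and 93.2 in knockdown libraries. Its region ends 626 bases short of the gene end, and its peaks did not lie at 1 place. On chromosome 19 they began at 8510584, 8510714 and 8510580 in control and all ended at 8511024, while those of knockdown replicates 2 and 3 began at 8510304 and 8510317 and ended at 8510764, and that of knockdown replicate 1 ran from 8510591 to 8510939. These percentiles thus belong to different stretches of the gene. ELOF1, a transcription elongation factor gene, had the same 768-base peak in all 6 libraries, at 48.5, 55.5 and 45.2 in control and at 75.7, 77.6 and 82.2 in knockdown libraries. KLK6, a kallikrein protease gene, was at 47.1, 49.1 and 53.8 in control and at 74.6, 73.6 and 77.8 in knockdown libraries. In the other direction, TMEM145 was at 58.6, 71.2 and 72.8 in control and at 25.6, 22.3 and 37.3 in knockdown libraries. PSTPIP1, a cytoskeletal adaptor of blood cells, had a 288-base peak in all 6 libraries, at 89.9, 94.8 and 85.3 in control and at 71.2, 66.4 and 66.8 in knockdown libraries. A percentile depends on all other peaks of the list, so these values are ranks and not amounts of ac4C.

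The study looked for ac4C targets of NAT10, with receptor signalling and the PI3K-AKT pathway among its subjects. ERBB2, a receptor tyrosine kinase, had a 3' end region at chr17:39727689-39728662 on the plus strand that reached 4 bases past the annotated end. It was listed in control replicates 1 and 2, at percentiles of 20.3 and 42.6, and in no knockdown library, so it missed the criterion for a changed region. Further members of the list of ERBB receptors, ligands and feedback genes with a 3' end region were SPRY4, CBLB and SHC1, which makes 4 of the 23 with any region (17.4%), and none was found in all 6 libraries. NAT10, ERRFI1 and EGFR, whose strands were known, had no 3' end region. For ERRFI1 the paper reports ac4C peaks in the 5' untranslated region and the coding sequence. On the short list of genes related to the study, 2 more had a 3' end region, each in a single control library. PRSS23 was listed in control replicate 1 at a percentile of 33.2 and SLC44A2 in control replicate 3 at 15.3.

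In the list of PI3K, AKT and mTOR core genes, 8 of the 29 with any region had one at the 3' end (27.6%), 3 of them in all 6 libraries, and none was called changed. PIK3R2, a regulatory subunit of PI3K, was at percentiles of 82.0, 76.5 and 93.2 in control and at 81.1, 80.1 and 75.8 in knockdown libraries. PRR5, a subunit of mTOR complex 2, was at 60.6, 40.9 and 58.6 in control and at 59.0, 66.3 and 71.4 in knockdown libraries. ULK1, the kinase that starts autophagy, was at 50.7, 44.2 and 76.6 in control and at 55.7, 45.5 and 93.2 in knockdown libraries. In all 3 the groups overlapped. The WNT and beta-catenin list had 7 of 23 (30.4%), with AXIN1 and TCF7L1, which restrain the pathway, and the co-receptor gene LRP5 in all 6 libraries. AXIN1 was at 42.4, 2.56 and 64.8 in control and at 77.5, 47.2 and 51.8 in knockdown libraries, which overlap as well.

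Among genes that control mRNA decay, 5 of the 29 with a region had one at the 3' end (17.2%). ZFP36, which binds AU-rich elements in 3' untranslated regions and promotes decay, was at the ceiling in all 6 libraries, and its region spans 65.2% of a short gene. UPF1, the helicase of nonsense-mediated decay, had the same 1716-base region in all 6 libraries, at 85.3, 87.6 and 93.2 in control and at 92.7, 85.1 and 93.2 in knockdown libraries. The immediate early and short-lived mRNA genes had 7 of 23 (30.4%). JUNB, JUND and PPP1R15A, a stress-induced phosphatase subunit, were found in all 6 libraries and FOS in 5. The keratin and epithelial adhesion list had 6 of 18 (33.3%), with JUP, or plakoglobin, and CLDN3, a tight junction claudin, in all 6 libraries. JUP was at 67.2, 49.8 and 93.2 in control and at 92.7, 88.3 and 93.2 in knockdown libraries. The CLDN3 region spans the whole of a gene without introns.

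The cytosolic ribosomal protein genes had a 3' end region in 6 of the 14 with any region (42.9%), out of 63 with a known strand. RPL36A was the only one found in all 6 libraries, at 83.8, 3.68 and 53.8 in control and at 51.0, 70.1 and 79.5 in knockdown libraries. Ribosomal protein genes have many processed copies, so reads can be split among them and these peaks are uncertain. By contrast, the cleavage and polyadenylation factors had none in 19 genes with a region, and the writers, erasers and readers of ac4C and m6A had none in 18. The 9 lists together held 43 genes with a 3' end region and none of these was called changed, which at a background of 1.59% is a count near the background. These lists were chosen with earlier results known, and their shares stand beside 23.2% over all genes without a test.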

How the data were processed

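acRIP-seq peak lists of 3 shControl and 3 shNAT10 immunoprecipitation libraries of SW620 cells were used. The 6 input libraries were left aside. The authors called peaks in each library without pooling replicates, with names in the manner of MACS, and deposited lists of mRNA peaks with a score, whose definition, like the aligner, the caller version and the settings, is not given in the sources used here. The genome build is GRCh38 per the submitters' processing notes. The lists hold no counts, so no interval or detection limit was computed.

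Peaks were merged, and genes were taken from the RefSeq table of GRCh38.p14, with strands from the RefSeq promoter table for 15843 of 20056 protein-coding genes. The other 4213 were left out, among them all 715 genes of chromosome 8, which held 1190 regions. Of the 41755 regions, 8973 lay in no same-strand gene of known strand, 7499 of them only in genes without a strand, 317 only on the opposite strand of a gene and 1157 in no protein-coding gene. The 14 regions that met the rule for 2 genes were counted once. Of the regions at 3' ends, 308 (13.2%) overlapped another protein-coding gene, 199 (8.55%) of them on the opposite strand. With several peaks in a region, the highest score percentile and the summed width were used for that region. The median width, the median distance and the share of edges at the gene end per library were taken over single peaks. Ties at 3100 share 1 percentile. For group means a two-sided exact permutation test was used, and for classes of regions a two-sided exact sign-flip permutation test over libraries, with Benjamini-Hochberg adjustment within families of 5 and 7. Gene lists and changed regions had no test.

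The regions and lists were chosen with earlier results of these data known. Genes were named by a rule: the 5 regions in all 6 libraries, and the 5 changed regions per direction, with the highest lowest percentile, ties going to the longer region; the genes with most regions and the 2 longest regions; up to 4 genes per list found in all 6 libraries; and a short list of genes related to the study. Others are marked as chosen after their values were seen. Presence or absence over the 2328 regions, centred within each group, had correlations of -0.0161, -0.0246 and 0.0172 between same-numbered control and knockdown libraries. Whether the numbers mark pairs cannot be decided from these values. Sequence composition was described only for the 95 ends inside the promoter windows. Alternatives were the higher-scored 50% of peaks, equal peak numbers (17877), 50% of a region covered, limits of 500 and 2000 bases, the span of 1 gene only, genes of at least 5000 bases, each library left out in turn and a replicate block. A strand taken from the peaks and regions in all 6 libraries only were added after the data were seen. In simulated lists made for control against knockdown, with 41755 regions, 200 of 200 planted regions were recovered, which checks the code only. Python 3.11.15, numpy 2.4.6, pandas 2.3.3 and matplotlib 3.10.9 were used.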

Additional observations from a re-analysis of the deposited data

How the results depend on the processing

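With the higher-scored 50% of peaks, the width difference between knockdown and control was -21.7 bases (exact permutation test, p = 0.8), the score percentile of 3' minus 5' ends was -0.328 points (p = 0.875), and 6 regions and 6 genes were control only. With equal peak numbers, the difference in distance, which the rule bounds, was 2.83 bases, 8 regions were control only and 13 knockdown only, and 14 genes were knockdown only. Within 500 bases of the end, the share in all libraries of 3' minus interior regions was -5.66 percentage points (exact permutation test, p = 0.03125), and 14 regions and 14 genes were knockdown only. Within 2000 bases that share difference was 0.670 (exact permutation test, p = 0.406), and 43 regions and 35 genes were knockdown only, since the wider limit holds 3695 regions and the narrower one 1303. The p-values of these share differences reflect list lengths and not a spread in recurrence. In genes of at least 5000 bases, 9 genes were control only. For regions in all 6 libraries only, an alternative chosen after seeing the data, the difference in distance was 4.33 bases. Apart from the wider and narrower limits, where fewer or more regions enter, the cause of these shifts was not tested.

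With each library left out in turn, knockdown minus control ranged from -71.7 to 200.3 in number, from -0.138 to 0.207 percentage points in share, from 2.81 to 5.42 in percentile, from -27.8 to 119 bases in width and from -9.83 to 2 bases in distance. The 3' minus interior difference ranged from -2.14 to 0.920 points in the share in all libraries, from 9.61 to 11.1 in percentile and from 525 to 580 bases in width. The 3' minus 5' difference ranged from -2662 to -2579 in number, from -23.5 to -20.4 points in the share, from -10.6 to -7.89 in percentile and from 396 to 449 bases in width. With 5 libraries the sign-flip test cannot go below 0.0625, so its loss of significance says nothing about stability. Changed regions ranged from 16 to 36 control only and from 34 to 71 knockdown only, and genes from 17 to 39 and from 35 to 70, because fewer libraries have to meet the criterion. The largest control-only counts, 36 regions and 39 genes, came without knockdown replicate 1, the longest list, and the largest knockdown-only counts without control replicate 3.

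With the replicate number as a block, a sign-flip permutation test over 3 pairs that cannot go below 0.25, the differences were those of the unpaired test (99 in number, 0.0620 points in share, 4.08 in percentile, 27.5 bases in width and -1.83 bases in distance) and no call changed. With 3 libraries per group no difference between the groups could pass 0.05, peak lists hide how close a missing peak came to being listed, and the ceiling at 3100 hides differences among the strongest peaks.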

Other observations

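The strand of genes outside the promoter table could be read from the peaks themselves. Among 9320 genes of known strand with a peak in 1 gene only, the majority strand of the peaks matched the strand of the gene in 99.2%. Of all pairs of a region and a gene that holds its midpoint, 96.8% were on the strand of the gene. With strands given in this way to 2180 more genes there were 2953 regions at 3' ends, of which 14 were control only and 31 knockdown only.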
